A study of Homo sapiens with 6 samples.

Results

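Sialyltransferases are enzymes of the Golgi that end glycan chains with sialic acid, and the 10 genes described here were followed across 6 RNA-seq libraries. They were chosen by name from 58735 genes: ST6GAL1 and ST6GAL2, which join sialic acid to galactose in an alpha2,6 linkage, ST3GAL1 to ST3GAL6, which join it to galactose in an alpha2,3 linkage, and ST6GALNAC4 and ST6GALNAC6, which act on N-acetylgalactosamine in an alpha2,6 linkage. ST6GAL1 was picked because it was higher after silencing of ANXA1, so its difference between the groups is given as a description with no test. Of the 10 genes, 9 had a count in some library and 8 passed the filter on low counts. Together they had 274 annotated transcripts, 148 of them with a count.

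Sialic acids are made in the cytosol, activated in the nucleus to CMP-sialic acid and carried into the Golgi, where each sialyltransferase places them on its own class of N-glycan, O-glycan or glycolipid. ST6GAL1 is the main enzyme that adds alpha2,6-linked sialic acid to N-glycans of cell surface glycoproteins. In B lymphocytes its product is the ligand of the inhibitory lectin CD22. Some ST3GAL enzymes can compete with it for the same galactose ends.

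The cells are labelled CCRF-SB, a lymphoblast-like line from peripheral blood, used as a model of B cell acute lymphoblastic leukaemia. Cells of the 3 siControl libraries (genotype label WT) received an empty lentiviral vector. Those of the 3 siANXA1 libraries (genotype label ANXA1 down-regulated) received a lentiviral vector that silences ANXA1. Both groups were grown in RPMI-1640 with foetal bovine serum and are labelled day 5. Puromycin selection is described for the stable silenced line. The labels do not state if the replicates were grown apart. The p-values below therefore cover the spread among these libraries, some or all of which may be technical.

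The libraries held between 21333951 counts assigned to genes (siANXA1 2) and 44148505 (siANXA1 1). The targeted gene, ANXA1, stood at 3696, 3696 and 3756 CPM (counts relative to library size, scaled to 1000000) in siControl, against 1606, 1723 and 1712 CPM in siANXA1, with a log2 fold change of -1.14 ± 0.093 (SE) and an adjusted p of 0.057 in edgeR's quasi-likelihood test. The label of a B cell line did not match its markers. Of 20 B cell markers, 4 (DNTT, IGLL1, VPREB1 and IGHM) were at 0 in every library, and the summed level of all 20 was 17.97 to 22.6 CPM in siControl and 15.6 to 20.9 CPM in siANXA1. The summed level of 16 erythroid and megakaryocyte markers was 2061 to 3503 CPM in siControl and 5808 to 7124 CPM in siANXA1. Much of that sum lay in TFRC, the transferrin receptor of dividing cells, and in the embryonic globin HBE1. TFRC was at 1293 to 2116 CPM in siControl and 1076 to 1813 CPM in siANXA1. HBE1 was at 4.74, 636.6 and 9.82 CPM in siControl, against 3286, 2140 and 2973 CPM in siANXA1. Other globins also held a part in both groups. HBG2 was at 275.5, 272.7 and 532.3 CPM in siControl and 768.2, 838.8 and 879.9 CPM in siANXA1. HBG1 was at 90.7, 95.1 and 211.9 CPM in siControl and 880.9, 347.1 and 248.1 CPM in siANXA1. The groups did not overlap for HBG2 and HBG1. HBA1 was at 83.1, 91.9 and 338.1 CPM in siControl and 298.8, 154.7 and 319.8 CPM in siANXA1, with overlapping groups. The megakaryocyte genes did not follow the sum: ITGA2B had a log2 fold change of -1.16 ± 0.432 (SE), with overlapping groups. GP9 and PF4 were at 0.0913 CPM or less. Of the 16 genes, 14 were tested. Of these, 5 were higher in siANXA1 without overlap, beside 7.41% of all genes tested, and 0 passed the threshold in edgeR, beside 0.0111%. The part of these markers in the results below was not tested, and in bulk RNA fewer cells of a type and less RNA per cell cannot be told apart. On the first principal component of all genes, which held 39.9% of the variance, siControl 1, siControl 2 and siANXA1 2 lay on one side and siControl 3, siANXA1 1 and siANXA1 3 on the other.

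Promoter sequences are shown for 3 of the genes. Each is the stretch of the RefSeq promoter window (GRCh38.p14) that lies upstream of the first annotated transcript start, 5′ to 3′ on the strand of the gene. It is ST6GAL1 at chr3:186930276-186930484 (plus strand), ST3GAL3 at chr1:43707286-43707496 (plus strand) and ST6GALNAC6 at chr9:127899656-127899853 (minus strand). Capitals mark matches to GGGCGG, the core of the GC box bound by SP1, and to CCAAT, on either strand (CCGCCC and ATTGG on the reverse).
ST6GAL1: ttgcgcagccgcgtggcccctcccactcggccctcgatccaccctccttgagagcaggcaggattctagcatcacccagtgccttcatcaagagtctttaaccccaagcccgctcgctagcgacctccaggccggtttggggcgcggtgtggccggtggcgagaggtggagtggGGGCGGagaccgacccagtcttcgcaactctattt
ST3GAL3: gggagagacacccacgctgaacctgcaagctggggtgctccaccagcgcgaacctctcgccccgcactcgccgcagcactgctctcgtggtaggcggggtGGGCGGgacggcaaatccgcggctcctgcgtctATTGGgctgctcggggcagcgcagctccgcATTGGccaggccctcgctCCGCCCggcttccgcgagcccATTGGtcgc
ST6GALNAC6: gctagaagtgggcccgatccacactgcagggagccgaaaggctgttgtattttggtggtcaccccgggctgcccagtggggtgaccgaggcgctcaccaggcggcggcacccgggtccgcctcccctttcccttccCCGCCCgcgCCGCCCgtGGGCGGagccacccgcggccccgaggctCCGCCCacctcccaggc
The ST6GAL1 stretch held 1 match to GGGCGG and 0 to CCAAT. The ST3GAL3 stretch held 2 and 3 matches, and the ST6GALNAC6 stretch 4 and 0. Transcripts that start within 100 bases of the RefSeq start held 76.4% of the counts of ST6GAL1, 40.2% of those of ST3GAL3 and 90.9% of those of ST6GALNAC6. RefSeq windows of 300 bases, 250 before and 50 after the start, were matched for 8 of the 10 genes, in 22 windows. GGGCGG was found in 8 of these 8 genes (15 of 22 windows, 68.2%) and in 45.0% of 35116 windows of all genes. CCAAT was found in 9 of the 22 windows (40.9%), in 5 of the 8 genes, and in 34.6% of all windows. TATAAA, the TATA box, was found in 0 of the 22 windows and in 11.5% of all windows. Some windows of the same gene overlap, as for ST3GAL5 and ST6GAL2, so the windows are not independent. The shares of all windows are per window, and a gene with more windows has more chances of a match. A match is only a run of letters.

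ST6GAL1 (chromosome 3, 186930485 to 187078553, plus strand, GRCh38) was higher in every siANXA1 library. Its level was 48.58, 48.02 and 48.00 CPM in siControl 1 to 3 and 116.66, 176.47 and 171.66 CPM in siANXA1 1 to 3. The siControl libraries were nearly equal, siANXA1 1 lay below the other 2 siANXA1 libraries, and the groups did not overlap. Groups were higher in siANXA1 without overlap in 7.41% of all genes tested, from which nothing is read here since the gene was picked for its rise. The means were 48.2 ± 0.330 and 154.9 ± 33.2 CPM (SD, n = 3), a ratio of 3.21, and the lowest siANXA1 library was 2.40 times the highest siControl library. The fitted log2 fold change was 1.68. It rests on 1603 to 2030 counts in the siControl libraries and 3864 to 6288 in the siANXA1 libraries. On the sides of the first principal component, siANXA1 2 stood at 176.47 CPM beside siControl 1 and 2. The libraries siANXA1 1 and 3 stood at 116.66 and 171.66 CPM beside siControl 3. Since the groups did not overlap, any split of the libraries would show siANXA1 higher, so nothing is read from this. ST6GAL2, the other alpha2,6-sialyltransferase of galactose, had 0 counts in each of the 6 libraries. A count of 0 allows up to 0.137 CPM in the smallest library (3 counts, for counting error only).

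**Figure D1:**
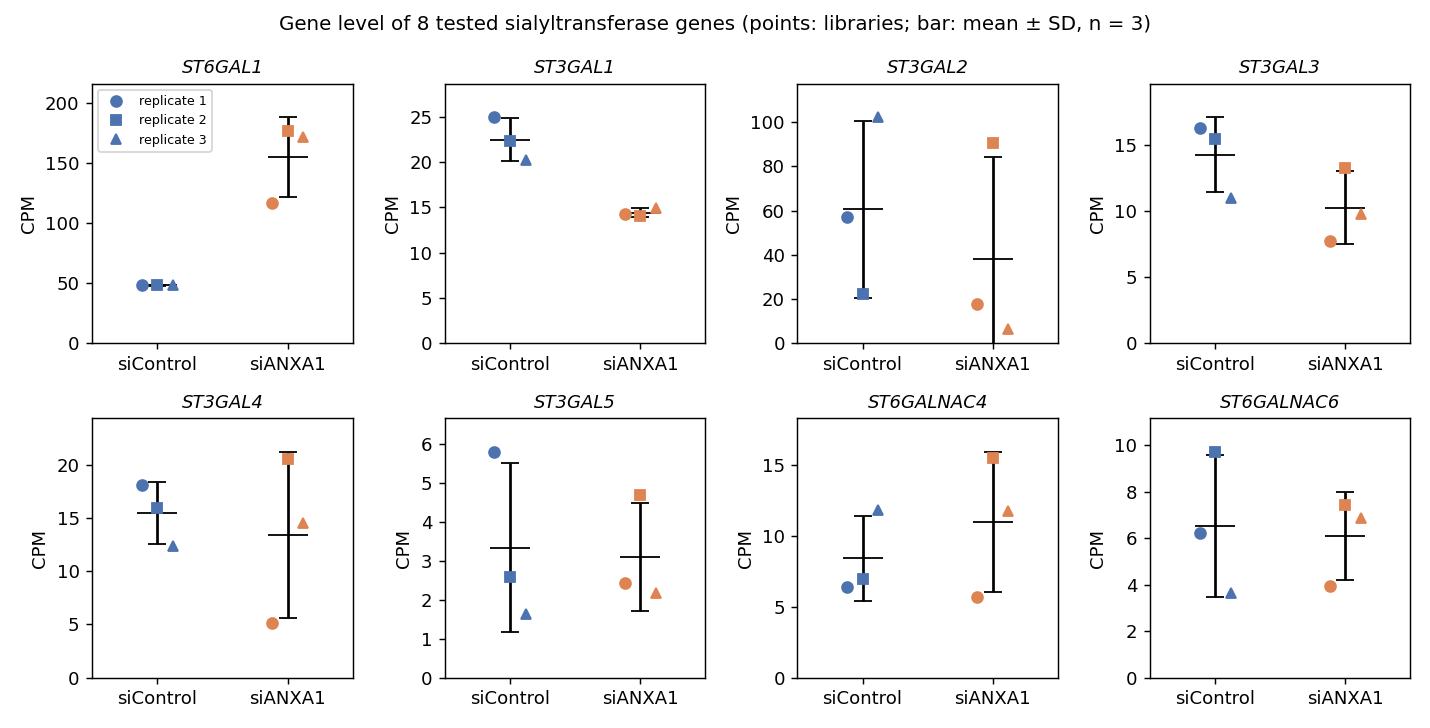
Gene level (CPM, linear axes from 0) of the 8 sialyltransferase genes that passed the filter, with libraries as points and mean ± SD as bars (n = 3; the lower bar of ST3GAL2 in siANXA1 is cut at 0). ST6GAL1 lay at 116.66 CPM or more in siANXA1 and at 48.58 CPM or less in siControl, and ST3GAL1 was lower without overlap, while the other 6 genes overlapped.

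The composition of ST6GAL1 by transcript differed among the siANXA1 libraries. The transcript ENST00000169298 has 8 exons, starts at 186930485 and encodes the full protein with a coding length of 1218 bases. It held 79.6%, 79.5% and 68.1% of the gene's counts in siControl 1 to 3 and 83.5%, 78.7% and 24.9% in siANXA1 1 to 3. In CPM it was at 38.7, 38.2 and 32.7 in siControl and at 97.5, 138.9 and 42.8 in siANXA1. In siANXA1 3 it therefore stood close to the siControl libraries, although the gene as a whole stood at 171.66 CPM there.

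The counts of siANXA1 3 lay in 2 other transcripts. ENST00000448044, which has the same coding length of 1218 bases but a first exon at 187021856 to 187022004, held 36.7% of the gene's counts in siANXA1 3, 10.9% in siControl 3 and 0 in the other 4 libraries. ENST00000457772 starts at 186930526 and lacks exon 4 of the main transcript, an exon of 657 bases (187042654 to 187043310) that holds the start codon at 187042704. Its annotated coding sequence is 525 bases long and starts at 187051335. It held 33.6% of the counts in siANXA1 3, 8.94% in siControl 2, 8.17% in siControl 3 and 0 in the other 3 libraries. Estimates divide reads among overlapping transcripts, so these shares are less certain than the sum per gene.

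Transcripts were also grouped by their start. Those starting at 186930485 to 186931352, directly downstream of the promoter printed above, held 84.1%, 92.7% and 80.7% of ST6GAL1 counts in siControl and 85.1%, 80.0% and 59.6% in siANXA1. Their summed level was 40.9, 44.5 and 38.7 CPM in siControl and 99.3, 141.3 and 102.3 CPM in siANXA1. These transcripts hold most of the sum by which ST6GAL1 was picked, so nothing is read from their higher level in siANXA1. In siANXA1 3, ENST00000457772, which lacks the exon with the start codon, was at 57.7 CPM. ENST00000169298 was at 42.8 CPM in that library. A retained-intron transcript, ENST00000470633, held 13.9%, 5.37% and 6.61% of the counts in siControl and 14.4%, 19.7% and 3.18% in siANXA1, with overlapping groups. Transcripts annotated as processed transcripts, which have no coding sequence, held 3.74%, 3.46% and 4.37% in siControl and 0.848%, 0.518% and 1.07% in siANXA1. The share is relative to the gene's total, by which ST6GAL1 was picked. The level of these transcripts was 1.82, 1.66 and 2.10 CPM in siControl, against 0.989, 0.913 and 1.83 CPM in siANXA1, with overlapping groups.

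**Figure D2:**
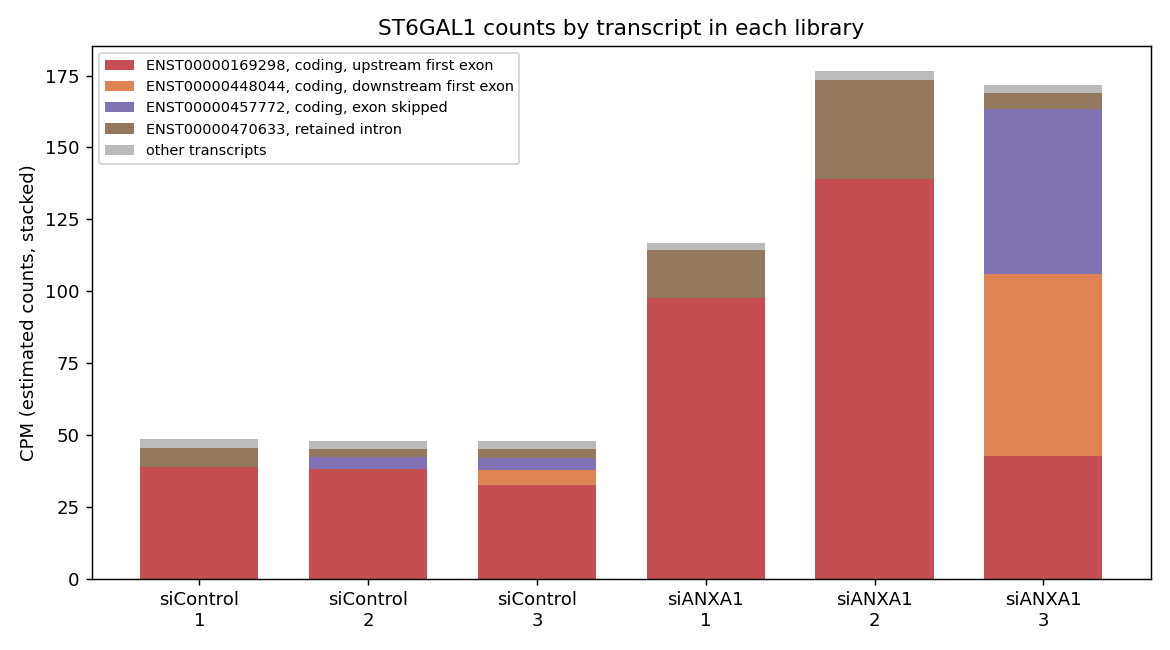
ST6GAL1 level (CPM, stacked) in each library, divided among 4 transcripts and the sum of the others. ENST00000169298 makes up most of the gene in 5 libraries, and in siANXA1 3 the skipped-exon transcript and the one with the downstream first exon hold 33.6% and 36.7%.

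ST3GAL1, which adds alpha2,3-linked sialic acid to core 1 O-glycans, was lower in every siANXA1 library. Its level was 24.9, 22.3 and 20.2 CPM in siControl and 14.3, 14.0 and 14.9 CPM in siANXA1. The groups did not overlap, and 64.1% of the siControl mean remained. The log2 fold change was -0.64 ± 0.186 (SE), and the adjusted p of edgeR's quasi-likelihood test was 0.605, so the difference did not pass the threshold. It passed in 1 of 19 alternatives, DESeq2 on the genes kept by the edgeR filter, with an adjusted p of 0.024, a setting chosen after seeing the data that called 1.67% of all genes. DESeq2 on all genes gave 0.186 and called 0.884% of genes. Groups were lower without overlap in 7.24% of all genes tested, and an unadjusted p under 0.05 in that direction was found for 4.52%. Transcripts that encode its protein held 97.1% to 99.0% of its counts.

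ST3GAL2, which acts on core 1 O-glycans and gangliosides, varied most among libraries. Its level was 57.0, 22.3 and 102.2 CPM in siControl and 17.7, 90.7 and 6.12 CPM in siANXA1, a 16.7-fold range within which the groups overlapped. The log2 fold change was -0.67 ± 1.002 (SE), with an adjusted p of 0.846 in edgeR's test. With each library left out in turn it ranged from -2.34 to -0.07. Its coding transcripts use different first exons: ENST00000393640 held 63.0%, 72.7% and 88.7% of the counts in siControl and 12.9%, 81.4% and 98.2% in siANXA1. ENST00000342907, with an upstream start, held 36.8%, 26.6% and 11.2% in siControl and 86.2%, 18.02% and 0.446% in siANXA1. The 2 siANXA1 libraries with the lowest gene level, siANXA1 1 and 3, thus differed in which transcript remained.

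**Figure D3:**
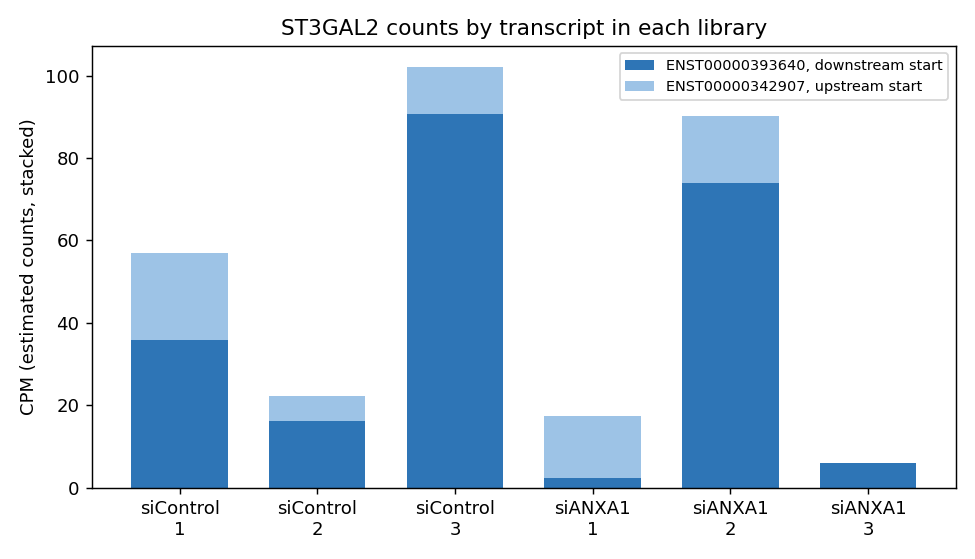
ST3GAL2 level (CPM, stacked) in each library by its main coding transcripts. Levels run from 6.12 CPM in siANXA1 3 to 102.2 CPM in siControl 3, and ENST00000393640 holds from 12.9% to 98.2% of the counts.

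ST3GAL3 and ST3GAL4 act mainly on N-glycan and type 2 chains. ST3GAL3 was at 16.3, 15.4 and 10.99 CPM in siControl and 7.75, 13.2 and 9.75 CPM in siANXA1, with a log2 fold change of -0.48 ± 0.288 (SE). ST3GAL4 was at 18.1, 15.9 and 12.4 CPM in siControl and 5.13, 20.6 and 14.6 CPM in siANXA1, with a log2 fold change of -0.21 ± 0.492 (SE). The groups overlapped for both, and the adjusted p of edgeR's test was 0.685 and 0.905. ST3GAL3 counts were split over many transcripts, with 54.1% to 65.0% in coding ones, and the gene overlaps AL451062.3 on its own strand and KDM4A-AS1 on the other, so its counts are uncertain.

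ST3GAL5, the GM3 synthase that starts ganglioside synthesis, was low at 5.79, 2.58 and 1.65 CPM in siControl and 2.44, 4.70 and 2.18 CPM in siANXA1. Its log2 fold change was -0.11 ± 0.557 (SE), with an adjusted p of 0.959 in edgeR's test. Coding transcripts held 15.3%, 15.4% and 0% of its counts in siControl and 38.7%, 38.8% and 0% in siANXA1. Most of its counts thus came from transcripts annotated as non-coding or subject to decay. ST3GAL6 had 2, 4 and 3 counts in siControl and 6, 0 and 0 counts in siANXA1, and was not tested. The gene DCBLD2 overlaps ST3GAL6 on the opposite strand, at 12.8 to 29.7 CPM, and the strand setting of the counting is not given in the sources used here.

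ST6GALNAC4, which makes disialylated core 1 O-glycans, was at 6.41, 6.97 and 11.9 CPM in siControl and 5.68, 15.5 and 11.7 CPM in siANXA1. Its log2 fold change was 0.38 ± 0.438 (SE), with an adjusted p of 0.807 in edgeR's test. Its coding transcripts held 50.7%, 63.0% and 44.9% of counts in siControl and 49.4%, 40.1% and 30.5% in siANXA1. Summed over coding transcripts alone, the fold change was -0.04. ST6GALNAC6, an enzyme of alpha-series gangliosides, was at 6.22, 9.70 and 3.62 CPM in siControl and 3.93, 7.44 and 6.88 CPM in siANXA1, a log2 fold change of -0.10 ± 0.438 (SE) with an adjusted p of 0.952 in edgeR's test. The non-coding transcript ENST00000485320 held from 19.8% to 76.1% of its counts. Both genes overlapped between groups.

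Of the 7 tested genes other than ST6GAL1, 0 passed an adjusted p of 0.05 in edgeR, beside 0.0111% of all 17947 genes tested. At an unadjusted p under 0.05 it was 1 of 7, beside 7.93% of all genes. DESeq2 on all genes and limma-voom also called 0 of the 7. Groups did not overlap for 1 of the 7, beside 14.6% of all genes. The log2 fold change was negative for 6 and positive for 1, with a median of -0.21, beside 0.01 over all genes tested.

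Several members followed the sides of the first principal component. ST3GAL3 was at 13.2 to 16.3 CPM in siControl 1, siControl 2 and siANXA1 2 and at 7.75 to 10.99 CPM in the other 3 libraries. ST3GAL4 was at 15.9 to 20.6 CPM in the former libraries and at 5.13 to 14.6 CPM in the latter. ST3GAL5 was at 2.58 to 5.79 CPM in the former and at 1.65 to 2.44 CPM in the latter. These 3 of 8 tested members were higher there without overlap, beside 19.7% of all genes tested. The component was computed from all genes, these included, so this is a description of how the libraries are arranged and not a comparison of the study's groups.

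Levels of different genes were compared per length, as TPM (counts divided by transcript length and scaled to 1000000 per library). In siControl, ST6GAL1 was at 27.1 ± 0.309 TPM (SD, n = 3), above the other 9 members, and ST3GAL4 (17.7 ± 3.13), ST3GAL2 (14.9 ± 8.53), ST3GAL3 (12.8 ± 2.54) and ST6GALNAC4 (10.7 ± 3.65) followed, each with a spread that overlapped its neighbour's. ST3GAL1 (8.77 ± 1.73), ST6GALNAC6 (5.99 ± 2.08) and ST3GAL5 (2.30 ± 1.57) came next in TPM. In siANXA1, ST6GAL1 was at 49.7, 76.2 and 79.3 TPM, and the next members by mean level were ST3GAL4 (14.9 ± 8.09 TPM) and ST6GALNAC4 (14.1 ± 6.18 TPM). ST6GALNAC1, a sialyltransferase outside the 10 that makes the sialyl-Tn antigen, was at 66.2, 64.5 and 22.8 TPM in siControl and 29.4, 33.1 and 25.4 TPM in siANXA1. Its level was above that of ST6GAL1 in siControl 1 and 2 and below it in the other 4 libraries.

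The balance of linkages to galactose followed from these levels. ST6GAL1 made up 25.5%, 28.8% and 26.9% of the members' summed TPM in siControl and 56.3%, 44.7% and 59.0% in siANXA1. The summed TPM of the alpha2,3 enzymes was 65.6, 49.0 and 55.4 in siControl and 27.2, 68.7 and 33.7 in siANXA1, with overlapping groups. The ratio of alpha2,6 to alpha2,3 enzymes in TPM was 0.416, 0.545 and 0.492 in siControl and 1.83, 1.11 and 2.36 in siANXA1. The ratio was below 1 in each siControl library and above 1 in each siANXA1 library. The alpha2,3 sum pools enzymes with different acceptors, ST3GAL1, ST3GAL2 and ST3GAL5 among them. A ratio of 1 is therefore no point of balance on the N-glycans that ST6GAL1 acts on. Since it contains ST6GAL1, it has no test, and it is a ratio of RNA levels, not of sialic acid on the cells.

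**Figure D4:**
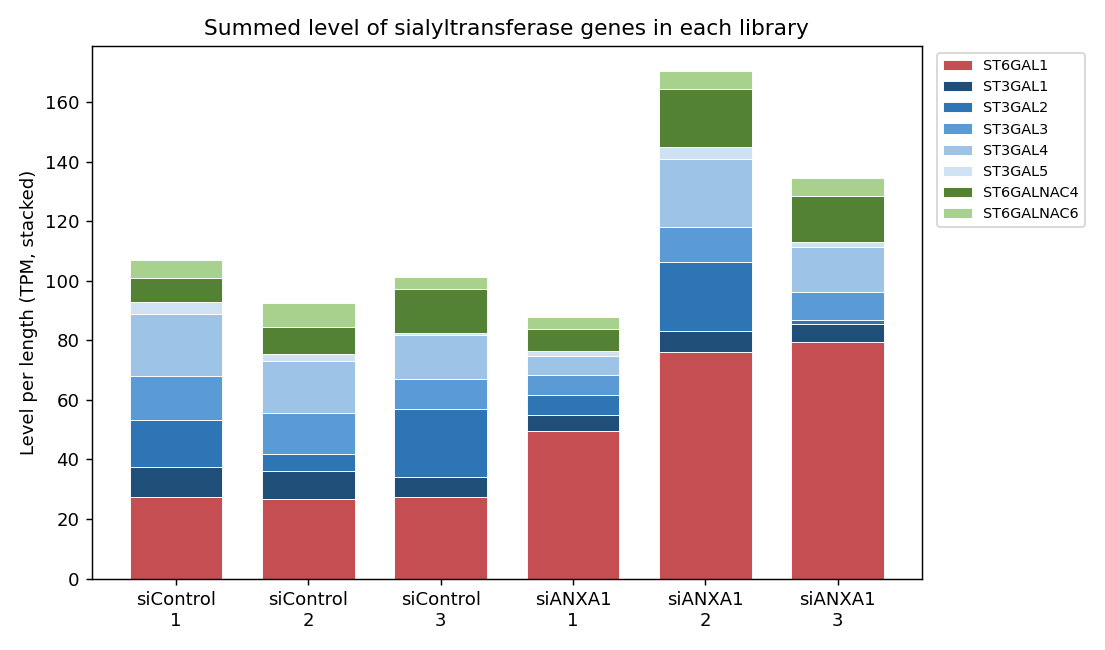
Summed level per length (TPM, stacked) of the 8 tested sialyltransferase genes in each library. ST6GAL1, at the base of each bar, takes 25.5% to 28.8% of the members' level in siControl and 44.7% to 59.0% in siANXA1, and the alpha2,3 enzymes vary from library to library.

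The other genes of the pathway were read from 9 lists with 98 genes, 68 of them tested. None of the 68 passed edgeR's adjusted threshold, 5 had an unadjusted p under 0.05 (beside 7.93% of all genes tested), and DESeq2 on all genes and limma-voom called 0. Groups did not overlap for 14.7% of the 68, 5 genes higher and 5 lower, beside 14.6% of all genes tested. The 5 genes with an unadjusted p under 0.05 were named after their values were seen. They were RENBP, which binds renin and epimerizes N-acetylglucosamine (log2 fold change -1.51 ± 0.471, SE), SIAE, which removes O-acetyl groups from sialic acid (-0.64 ± 0.254), B4GALT5, a lactosylceramide synthase (1.04 ± 0.316), PTPRC (-0.71 ± 0.145) and TNFRSF1A (0.55 ± 0.183), both of which are known substrates of ST6GAL1. Their adjusted p in edgeR's test ranged from 0.574 to 0.627.

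Genes that make and move the donor sugar overlapped between groups. CMAS, which activates sialic acid, was at 201.8 ± 26.3 CPM in siControl, against 195.9 ± 35.2 CPM in siANXA1 (SD, n = 3). NANS, the sialic acid synthase, was at 113.2 ± 8.74 and 114.4 ± 2.53 CPM, and NANP, its phosphatase, at 30.5 ± 12.2 and 36.3 ± 6.60 CPM. Their log2 fold changes of -0.04, 0.02 and 0.25 lay within 1 SE of 0. The median over the 5 genes of this list was 0.02, beside 0.01 over all genes tested. Of the genes that remove or recycle sialic acid, the sialidase NEU3 varied from 7.13 to 91.8 CPM in siControl and from 9.69 to 90.4 CPM in siANXA1, with a log2 fold change of -0.12 ± 1.03 (SE). CTSA, which protects the lysosomal sialidase, and NPL, which cleaves sialic acid, had log2 fold changes of -0.23 ± 0.260 and -0.48 ± 0.494 (SE). The list's median was -0.21 over 8 tested genes, 7 of them negative and 1 positive. Groups were higher in siANXA1 without overlap for 1 and lower for 2, beside 7.41% and 7.24% of all genes tested. The positive and higher one was the lysosomal sialidase NEU1, named after its values were seen. NEU1 was at 14.3, 17.3 and 9.52 CPM in siControl and 19.6, 18.7 and 18.9 CPM in siANXA1. Its log2 fold change was 0.48 ± 0.262 (SE), with an adjusted p of 0.663 in edgeR's test.

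Of the genes that serve to build the glycans to be sialylated, 19 for N-glycan branching and galactosylation were tested, sugar carriers among them. Groups did not overlap for 0 of these 19, beside 14.6% of all genes tested. MAN1A1, a Golgi mannosidase, was at 387.3 ± 82.9 CPM in siControl, against 410.6 ± 99.5 CPM in siANXA1, and MGAT1, which starts complex N-glycans, at 93.7 ± 33.2 and 97.0 ± 26.7 CPM (SD, n = 3). MAN2A1, a further mannosidase, had a log2 fold change of -0.10 ± 0.326 (SE). The median of the 19 tested genes for N-glycan branching and galactosylation was 0.05. GALNT2, GALNT1 and GALNT10, which start O-glycans, had log2 fold changes of 0.19 ± 0.184, 0.39 ± 0.218 and 0.59 ± 0.638 (SE), and the median of the 11 tested O-glycan core genes was -0.09. Of these 11, 2 were higher without overlap (GALNT6 and GALNT11) and 2 lower (GALNT4 and B3GNT6), beside 7.41% and 7.24% of all genes tested. These 4 were named after their values were seen, and none passed the adjusted threshold of edgeR.

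For gangliosides, UGCG, which makes glucosylceramide, was at 65.1 ± 29.3 CPM in siControl, against 101.3 ± 17.1 CPM in siANXA1, and B4GALNT1, the GM2 synthase, at 18.4 ± 2.81 and 22.5 ± 3.83 CPM (SD, n = 3). B4GALT5 was at 40.5, 45.7 and 55.7 CPM in siControl and 118.2, 56.7 and 117.5 CPM in siANXA1, with siANXA1 2 just above siControl 3. The list's median log2 fold change was 0.29 over 5 tested genes. FUT4 was the only tested gene of 6 fucosyltransferases, at 0.21 ± 0.317 (SE), while FUT3 and FUT5 were at 0.345 CPM or less in every library.

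Among the other sialyltransferases, ST6GALNAC1, ST8SIA4 and ST8SIA6 had log2 fold changes of -0.78 ± 0.529, -0.42 ± 0.431 and -0.25 ± 0.435 (SE). The latter 2 join sialic acid to sialic acid. ST8SIA1, the remaining tested gene of this list, named after its values were seen, stood at 0.38 ± 0.477 (SE). The groups overlapped for each of these 4 genes, and their adjusted p in edgeR's test ranged from 0.711 to 0.869. Of the lectins that read sialic acid, CD33, SIGLEC10 and MAG had log2 fold changes of -0.54 ± 0.538, -0.40 ± 0.556 and -0.82 ± 0.495 (SE), with levels of 12.1 CPM or less. The groups overlapped for these 3 genes, and their adjusted p in edgeR's test ranged from 0.680 to 0.836. These 3 followed the sides of the first principal component. They lay at 10.5, 6.03 and 1.64 CPM or more in siControl 1, siControl 2 and siANXA1 2. Elsewhere they lay at 4.59, 2.88 and 1.17 CPM or less. The median of the 6 tested readers was -0.59, with 5 negative and 1 positive. The positive one, CD22, named after its values were seen, stood at 0.13 ± 0.355 (SE), with overlapping groups. Among known substrates and proteases of ST6GAL1, the phosphatase PTPRC was at 452.3, 479.3 and 376.5 CPM in siControl and 247.2, 292.0 and 262.3 CPM in siANXA1, without overlap. The integrin ITGB1 was at 680.8 ± 84.0 and 625.9 ± 38.0 CPM, and SPPL3, a protease that releases Golgi glycosyltransferases, at 40.8 ± 4.57 and 39.8 ± 5.54 CPM (SD, n = 3).

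**Figure D5:**
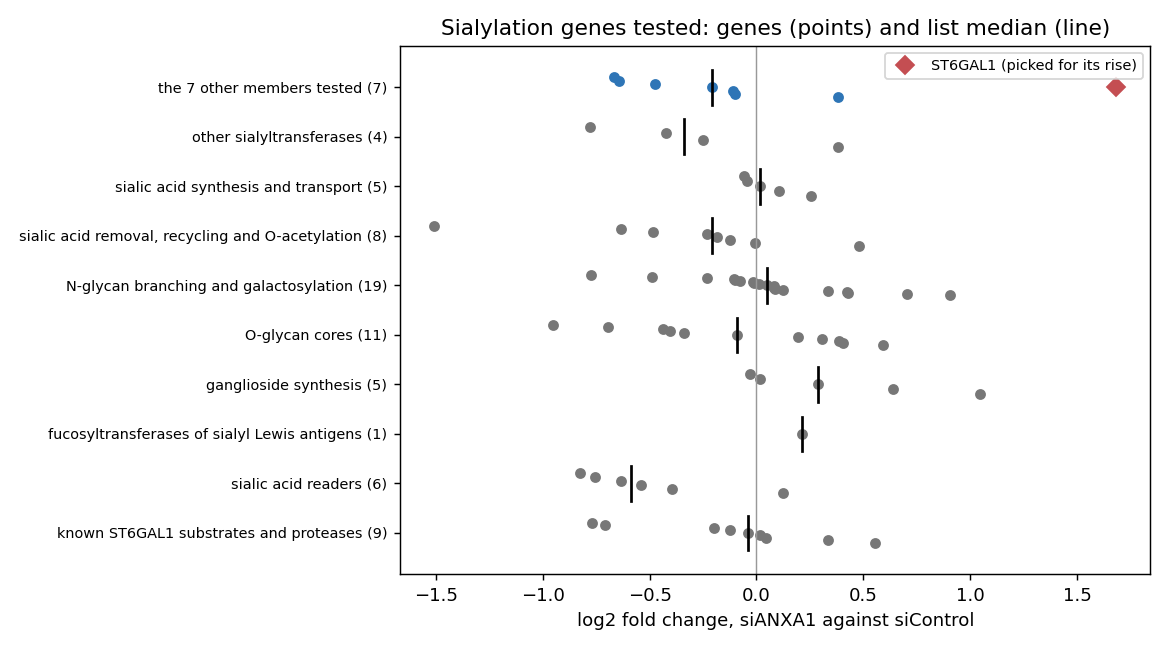
Log2 fold change (siANXA1 against siControl) of each tested gene (points) by list, with the list's median as a line and the number of tested genes in brackets. ST6GAL1, picked for its rise, stands at 1.68, while the medians of the lists lie between -0.59 and 0.29.

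Genes whose level followed that of ST6GAL1 most closely were ranked by Pearson correlation of log2 CPM over 6 libraries, among 9849 protein coding genes with a mean of 5 CPM or more. The highest were RAB9A (r = 0.995), SCAP (0.985), PTPMT1 (0.985), ENTPD3 (0.983) and SERP1 (0.980). ENTPD3 was at 3.11, 3.50 and 4.04 CPM in siControl and 7.75, 9.59 and 9.42 CPM in siANXA1. Of all candidates, 38 reached 0.95 and 42 reached -0.95, and with 6 libraries in 2 groups such values mostly repeat the difference between the groups. With each group centred on its own mean, those named here were NPIPB5 (r = 0.9995), TSPAN3 (0.998), NT5C3A (0.997) and SELENOO (0.996), which rests on siANXA1 1 lying apart from the other siANXA1 libraries. SELENOO, for example, was at 1.47 CPM in siANXA1 1 and at 29.05 and 20.4 CPM in siANXA1 2 and 3.

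The genes around ST6GAL1 were read to see whether the higher level reached beyond it, a list chosen with the values of ST6GAL1 known. Of 60 genes within 1000000 bases on either side, 21 were tested and 0 passed edgeR's adjusted threshold, while 2 had an unadjusted p under 0.05, beside 7.93% of all genes tested. Groups were higher in siANXA1 without overlap for 2 and lower for 1, TBCCD1, beside 7.41% and 7.24% of all genes. Their log2 fold changes ran from -1.38 ± 0.693 (SE), for the transcriptional repressor BCL6, to 0.72. BCL6 was at 21.9, 22.4 and 6.29 CPM in siControl and 3.89, 12.3 and 3.28 CPM in siANXA1. Its groups overlapped, and its adjusted p in edgeR's test was 0.645. RPL39L, a ribosomal protein gene downstream of ST6GAL1, was at 45.9 ± 9.25 CPM in siControl, against 45.8 ± 14.7 CPM in siANXA1 (SD, n = 3).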

How the data were processed

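RNA was measured in 6 libraries, 3 per group, grouped by the sample titles. Transcript-level estimated counts, whole numbers with no normalization, were deposited by the authors in 2 tables whose 1335690 values were equal; that they are estimates was read from the values. How reads were aligned and counted, and with which strand setting, is not given in the sources used here. Per the submitters' processing notes the build is mm10, a mouse build, but GENCODE release 29 (GRCh38), whose coordinates are used here, holds each of the 206601 Ensembl transcripts. Rows without a gene (16014, 16.9% to 17.7% of each library's counts) were left out.

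Counts were summed per gene and tested by quasi-likelihood in edgeR 4.0.16 under R 4.3.3 (TMM scaling after filterByExpr, robust glmQLFit, then glmQLFTest, with no covariate, two-sided, Benjamini-Hochberg over 17947 genes, threshold 0.05). CPM are TMM-scaled; TPM divide each transcript's count by its length. Alternatives used DESeq2 1.42.0, limma-voom (limma 3.58.1), other filters and sums, a replicate block, a principal component side and each library left out. Figures used matplotlib 3.10.9. The test was checked on simulated counts.

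The members, lists and tests were chosen with earlier results of these data known. Named were all members, ANXA1, the genes of each list past the threshold or otherwise its 3 highest by mean CPM, and the 5 genes most like ST6GAL1 by each of 2 correlations (1 of these is not reported here); others are said to be chosen afterwards or given as the gene a result turns on.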

Additional observations from a re-analysis of the deposited data

How the results depend on the processing

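The number of genes called was 2 in edgeR. It was 163 with DESeq2, 258 with DESeq2 on the genes kept by the edgeR filter (chosen after seeing the data), 1 with the most abundant transcript per gene, 0 with protein coding transcripts only, 5 with the rows without a gene, 5 with the side of principal component 1 as a covariate, and 0 to 7 with each library left out in turn. The replicate block gave 0 calls. Same-numbered libraries of the groups correlated at -0.114, 0.263 and 0.256, and differently numbered ones at -0.355 to 0.226. These values do not settle whether the numbers pair the libraries. Only DESeq2 on the filtered genes called members or pathway genes, 1 of each (ST3GAL1 and PTPRC). ANXA1 passed with the stricter filter (-1.17), DESeq2 (-1.15), DESeq2 on the filtered genes (-1.15), limma-voom (-1.15), the rows without a gene (-1.17), the component side (-1.14) and without siControl 3 (-1.14), and ranged from -1.16 to -1.11 with a library left out. The log2 fold change of ST6GAL1 was 1.34 with the most abundant transcript and 1.58 to 1.85 with a library left out. Its siControl level was 19.6 TPM with the length of the most abundant transcript and 24.2 TPM with coding transcripts only; its share of the members' level was 23.8% with the former, and ENST00000169298 held 87.2% of coding counts. Log2 fold changes that turned sign were those of ST3GAL5 (0.014 with the replicate block, 1.05 with coding transcripts, 0.32 with the component side), ST3GAL4 (0.31 with the most abundant transcript), ST6GALNAC6 (0.081 with the most abundant transcript, 0.24 with the component side) and ST6GALNAC4 (-0.041 with coding transcripts). With each library left out in turn, ST3GAL4 ranged from -0.65 to 0.18, ST3GAL5 from -0.53 to 0.54 and ST6GALNAC6 from -0.39 to 0.29. ST3GAL1, ST3GAL2 and ST3GAL3 stayed negative in all 19 alternatives. The causes were not tested. With 3 libraries per group an exact permutation test cannot go below p = 0.1.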
